A study of Mus musculus with 2 samples.

Results

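Glycolysis splits glucose into pyruvate in a chain of cytosolic enzyme steps, and lactate dehydrogenase then converts pyruvate and lactate into each other. Several steps are served by more than 1 gene, whose products (isozymes) differ between cell types and in how they are controlled. In brain the pathway is known for feeding both neurons and astrocytes, and pyruvate kinase is known for an exon switch that sets whether the enzyme is constantly active (M1) or held under metabolic control (M2). The 10 genes described here encode enzymes of 7 steps: Gpi1 (glucose-6-phosphate isomerase), Aldoa and Aldoc (aldolases), Tpi1 (triosephosphate isomerase), Pgk1 (phosphoglycerate kinase), Eno1 and Eno2 (enolases), Pkm (pyruvate kinase), and Ldha and Ldhb (lactate dehydrogenase subunits). They were chosen by gene symbol and not by a measured value, and all 10 had reads, among 18311 known genes with reads in either library.

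The values are long-read RNA sequencing counts from hippocampus tissue (labelled as a layer of it) of male B6CASTF1/J mice, which carry a C57BL/6J and a CAST/EiJ genome, at 14 days of age. The study holds a single group of 2 libraries, called replicate 1 and replicate 2, each from the pooled tissue of 3 males and 2 µg of RNA, with ERCC and SIRV spike-in RNAs added. No condition was contrasted. The labels of the samples name separate animals, but a description of the experiment repeats the animals of replicate 1 for both, so how the libraries differ may be technical. The p-values below compare these libraries against counting error alone. Replicate 1 had 832263 reads, of which 821324 were counted as mouse, and replicate 2 had 753385, of which 743862 were counted as mouse. Mouse reads here are all reads outside the ERCC sequences, and SIRV reads were not looked for among them. All 9 hippocampal check genes had reads, with summed levels of 1238 and 1303 CPM (counts per 1000000 mouse reads), among them Prox1, a marker of dentate granule neurons, at 20.7 ± 8.68 CPM and Wfs1, a marker of CA1 neurons, at 171 ± 22.8 (SD, n = 2). All 10 neuronal and all 10 astrocyte markers had reads too, so each level below is a mixture over cell types, in which fewer cells of a type and less RNA per cell cannot be told apart.

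The central exon pair of Pkm and the DNA before 3 start sites are shown first, because the exon choice and the first exons below turn on them. Pkm lies on mm10 chr9:59656368-59679375 (plus strand). Its M1 exon is coding exon 9 of the 11 exons of transcript Pkm-202, at chr9:59675029-59675195, and its M2 exon is coding exon 9 of the 11 of Pkm-201, at chr9:59675568-59675734. Both are 167 bases long with 372 bases between them, and they are identical at 103 positions (61.7%). Their sequences were read from the GENCODE M21 transcripts, and the capitals below mark the 64 positions at which they differ. A long read that crosses the pair therefore has many bases by which the exons can be told apart.

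M1 exon of Pkm: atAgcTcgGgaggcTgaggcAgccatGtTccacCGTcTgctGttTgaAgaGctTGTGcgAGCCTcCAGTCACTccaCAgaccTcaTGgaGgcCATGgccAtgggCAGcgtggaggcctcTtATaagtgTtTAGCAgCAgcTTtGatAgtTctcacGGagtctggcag
M2 exon of Pkm: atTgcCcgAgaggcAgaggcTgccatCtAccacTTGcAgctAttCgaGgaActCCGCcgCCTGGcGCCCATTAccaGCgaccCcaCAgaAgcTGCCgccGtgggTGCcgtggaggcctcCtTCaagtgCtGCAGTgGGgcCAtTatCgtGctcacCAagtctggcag

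Promoter windows come from RefSeq on GRCm38.p6, which held 17 start sites for the 10 genes. The capitals in the next 3 sequences mark the hypoxia response core (ACGTG or GCGTG, the letters that hypoxia-inducible factors read) and the GC box (GGGCGG), each on either strand. Shown are the 250 bases before the main start of Aldoa (chr7:126799255-126799504, minus strand), the 57 bases between the distal start of Aldoa and the nearest annotated exon before it (chr7:126800448-126800504, minus strand), and the 250 bases before the main start of Ldha (chr7:46845554-46845803, plus strand).

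Aldoa, main start: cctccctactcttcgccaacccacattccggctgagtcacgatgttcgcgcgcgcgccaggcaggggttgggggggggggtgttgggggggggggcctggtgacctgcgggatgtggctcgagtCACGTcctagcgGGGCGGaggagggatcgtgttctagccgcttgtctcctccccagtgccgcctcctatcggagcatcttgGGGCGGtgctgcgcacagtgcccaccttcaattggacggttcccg
Aldoa, distal start: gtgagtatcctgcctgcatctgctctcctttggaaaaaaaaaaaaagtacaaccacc
Ldha, main start: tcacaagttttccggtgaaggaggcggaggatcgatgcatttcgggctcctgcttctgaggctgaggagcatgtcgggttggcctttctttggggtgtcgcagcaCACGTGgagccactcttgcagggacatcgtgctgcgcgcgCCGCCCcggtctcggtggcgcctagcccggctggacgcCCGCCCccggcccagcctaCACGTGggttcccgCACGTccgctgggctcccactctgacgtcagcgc

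The Aldoa main window held 1 hypoxia response core and 2 GC boxes at a GC content of 67.6%, and the distal window held neither at 42.1% GC. The Ldha window held 2 CACGTG sequences (E-boxes, each of which also holds the core on both strands), 1 further core and 2 GC boxes. Over the 250 bases before all 17 start sites, either core was found before 12, against 38.6% of 32851 mouse promoter windows of that length. A core lay in at least 1 window of 7 of the 10 genes, a count for which no share over all genes was taken. The windows compared were not matched for GC content. The GC box was found before 10 of the 17 (32.7% of all windows), and TATAAA, read on the forward strand, before none (7.59% of all windows). The start sites of a gene overlap in part, so these counts describe letters and not separate promoters.

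All 10 genes were abundant. Together they had 8744 reads in replicate 1 and 6777 in replicate 2, or 1.06% and 0.911% of mouse reads, which is 10646 and 9111 CPM. By mean level they ranked from 10 (Aldoa) to 293 (Eno2) among the known genes. Each long read was taken as 1 molecule, so CPM compares molecules between genes without a correction for length, and the order by CPM per kb of model length is given beside the order by CPM.

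**Figure D1:**
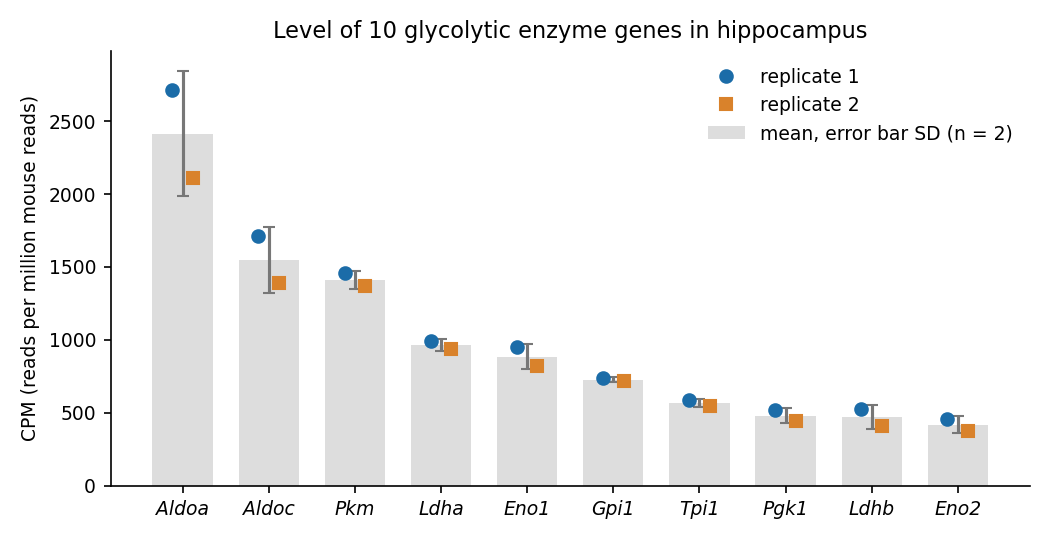
CPM of each gene, with bars for the mean, error bars for the SD over 2 libraries, circles for replicate 1 and squares for replicate 2. Aldoa stood highest at 2715 and 2109 CPM, and for all 10 genes the circle lay above the square.

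Gpi1 encodes the isomerase that turns glucose-6-phosphate into fructose-6-phosphate. It had 606 reads in replicate 1 and 533 in replicate 2, or 738 and 717 CPM (mean 727 ± 15.1, SD, n = 2). Its libraries lay closest together of all 10 genes.

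The aldolases cleave fructose-1,6-bisphosphate into the pair of triose phosphates. Aldoa, the form also found in muscle, had 2230 and 1569 reads, or 2715 and 2109 CPM (mean 2412 ± 428, SD, n = 2). Aldoc, the brain form that marks astrocytes and some Purkinje cells, had 1404 and 1032 reads, or 1709 and 1387 CPM (mean 1548 ± 228). Aldoa made up 61.4% of aldolase reads in replicate 1 (Wilson 95% interval 59.8% to 62.9%), against 60.2% in replicate 2 (58.3% to 62.1%). The intervals of the libraries overlapped in this balance, while both genes had a lower CPM in replicate 2.

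Tpi1 encodes the enzyme that interconverts the triose phosphates. It had 480 and 405 reads, or 584 and 544 CPM (mean 564 ± 28.3, SD, n = 2). Pgk1, the X-linked kinase that makes the first ATP of the pathway, had 425 and 329 reads, or 517 and 442 CPM (mean 479.9 ± 53.2). Its testis paralog Pgk2 had 0 reads in both libraries, which allows up to 0.706% and 0.912% of the phosphoglycerate kinase reads.

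The enolases make phosphoenolpyruvate, and Eno2 is the classical neuronal form. Eno1 had 779 and 612 reads, or 948 and 823 CPM (mean 886 ± 88.9, SD, n = 2). Eno2 had 376 and 279 reads, or 458 and 375 CPM (mean 416 ± 58.5). Eno1 held 66.9% of enolase reads in replicate 1 (64.2% to 69.6% by Wilson 95% interval), and 68.4% in replicate 2 (65.3% to 71.3%), and the muscle form Eno3 held 0.610% ± 0.231.

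The Eno1 level carries a particular uncertainty. Eno1b, a gene on another chromosome whose model has a sequence 99.5% identical to Eno1 over 1736 bases, was listed with 447 and 321 reads (488 ± 79.7 CPM). Gm4735, another copy at 99.6% identity, had 14 and 9. Adding the reads of the copies would place Eno1 at 1388 ± 172 CPM and its share of enolase reads at 76.6%, so the split between these genes is uncertain. In all, 27 near-identical copies of the 10 genes were found (at least 90% identity over at least 500 bases) and 4 had reads. Beyond the copies of Eno1 these were a copy of Gpi1 and a copy of Pgk1, each with 1 read.

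Pkm encodes the muscle-type pyruvate kinase, which makes pyruvate and ATP. It had 1196 and 1018 reads, or 1456 and 1369 CPM (mean 1412 ± 62.0, SD, n = 2). Pklr, the gene of the liver and red-cell enzyme, had 0 reads in both libraries, which allows up to 0.251% and 0.295% of pyruvate kinase reads. All pyruvate kinase reads were therefore of Pkm at this depth.

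Ldha and Ldhb encode the subunits of the lactate dehydrogenase tetramer, the first favoured in tissues that make lactate and the second in those that use it. Ldha had 814 and 695 reads, or 991 and 934 CPM (mean 963 ± 40.1, SD, n = 2). Ldhb had 434 and 305 reads, or 528 and 410.0 CPM (mean 469 ± 83.7). Ldha held 65.2% of the reads of the family in replicate 1 (62.5% to 67.8% by Wilson 95% interval), and 69.5% in replicate 2 (66.6% to 72.3%), and Ldhc, the sperm form, had 0 reads. The libraries differed more in this balance than in those of the aldolases and enolases, with intervals that still overlapped.

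In the order of mean CPM, the neighbours Aldoa and Aldoc, Pkm and Ldha, Eno1 and Gpi1, Gpi1 and Tpi1, and Tpi1 and Pgk1 did not overlap between libraries. The neighbours Aldoc and Pkm, Ldha and Eno1, Pgk1 and Ldhb, and Ldhb and Eno2 overlapped. Pgk1 and Ldhb also changed places between the libraries. Per kb of model length Aldoa stayed first, at 1613 ± 279 CPM per kb, and Eno2 last, at 176 ± 30.4. Pkm (664 ± 29.0) and Ldha (600.1 ± 21.7) then stood above Aldoc (584 ± 88.6), whose models are longer. Tpi1 (361 ± 17.9) and Ldhb (348 ± 54.5) moved above Gpi1 (274 ± 2.94), and Ldhb also moved above Pgk1 (276 ± 32.0). Gpi1, above Tpi1 by CPM, was thus below it per kb.

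Summed over their isozymes, the steps differed widely. Aldolase had 3964 ± 651 CPM, lactate dehydrogenase 1432 ± 124, pyruvate kinase 1412 ± 62.0 and enolase 1310.2 ± 151 (SD, n = 2). The enolase sum leaves out the near-identical copies of Eno1, of which Eno1b alone was listed at 488 ± 79.7 CPM. With Eno1b counted, enolase would stand above lactate dehydrogenase and pyruvate kinase, so the order of these steps is uncertain. The phosphofructokinases, which commit glucose to the pathway, had 1032 ± 63.3 CPM, split among Pfkl (447 ± 19.3), Pfkp (337 ± 37.8) and Pfkm (248 ± 6.16). Phosphoglycerate mutase had 851 ± 137, nearly all of it Pgam1 (843 ± 141), and the hexokinases had 379 ± 19.3, of which Hk1 held 94.9% ± 0.0969.

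Gapdh, which encodes the enzyme between Tpi1 and Pgk1, was listed with only 20 and 9 reads. Of 169 near-identical copies of it in the annotation, 23 had reads, with 747 and 619 reads in all (871 ± 54.7 CPM). The largest was Gm12671, with 275 and 182 reads and 100% identity over 1002 bases. The level of this step cannot be read from the gene alone. Gm12671 was singled out after its values were seen.

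**Figure D2:**
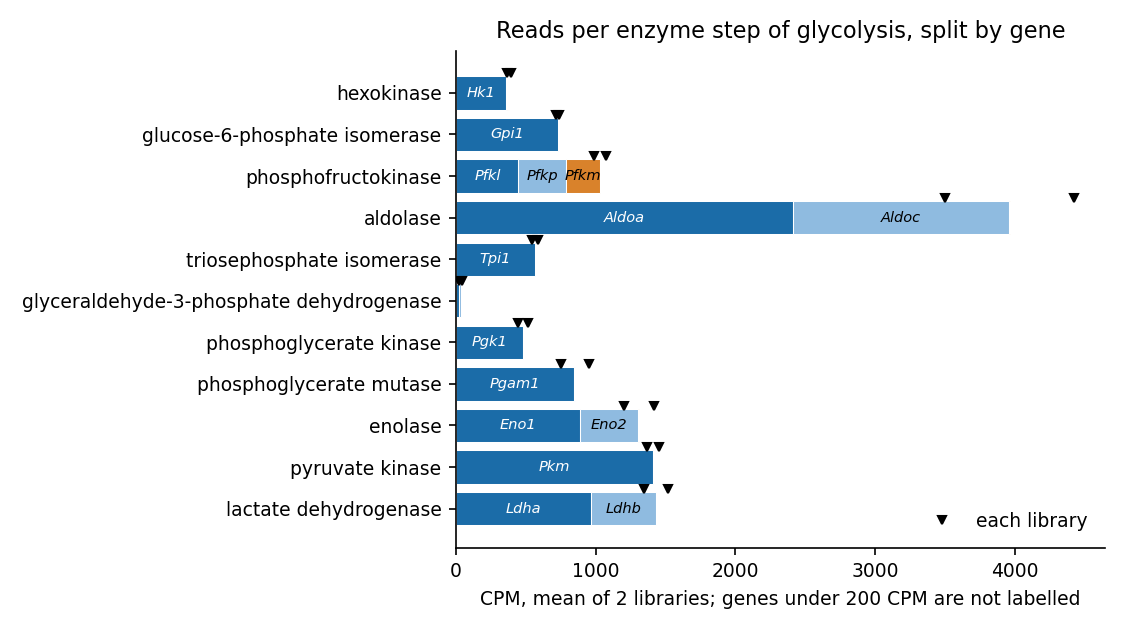
Summed CPM per enzyme step, in pathway order from hexokinase to lactate dehydrogenase, with each bar split by gene (mean of 2 libraries) and triangles for each library's sum. Aldolase reached 3964 CPM and hexokinase had 379 CPM. The glyceraldehyde-3-phosphate dehydrogenase bar holds Gapdh and Gapdhs without their copies, and the enolase bar leaves out the copies of Eno1.

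The exon pair of Pkm was read in every molecule that crossed it. In replicate 1, 961 reads held the M1 exon alone and 197 the M2 exon alone. In replicate 2 the counts were 804 and 188. The M1 share of these reads was 83.0% in replicate 1 (80.7% to 85.0% by Wilson 95% interval). It was 81.0% in replicate 2 (78.5% to 83.4%). The mean was 82.0% ± 1.37 (SD, n = 2). M1 thus led M2 by 4.88 and 4.28 reads to 1, in a tissue that holds neurons and glia in unknown shares.

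Hardly any read broke the rule of a single choice. Both exons were held by 1 read of replicate 1 and 0 of replicate 2, and neither by 0 and 1. In 17 reads of each library the pair lay within a longer exon or was cut by another splice site. As levels, M1 had 1170.1 and 1081 CPM (mean 1125 ± 63.1) and M2 had 239.9 and 253 (mean 246 ± 9.11, SD, n = 2). Both forms of the enzyme were therefore well above the 3 reads (3.65 and 4.03 CPM) that a count of 0 allows.

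**Figure D3:**
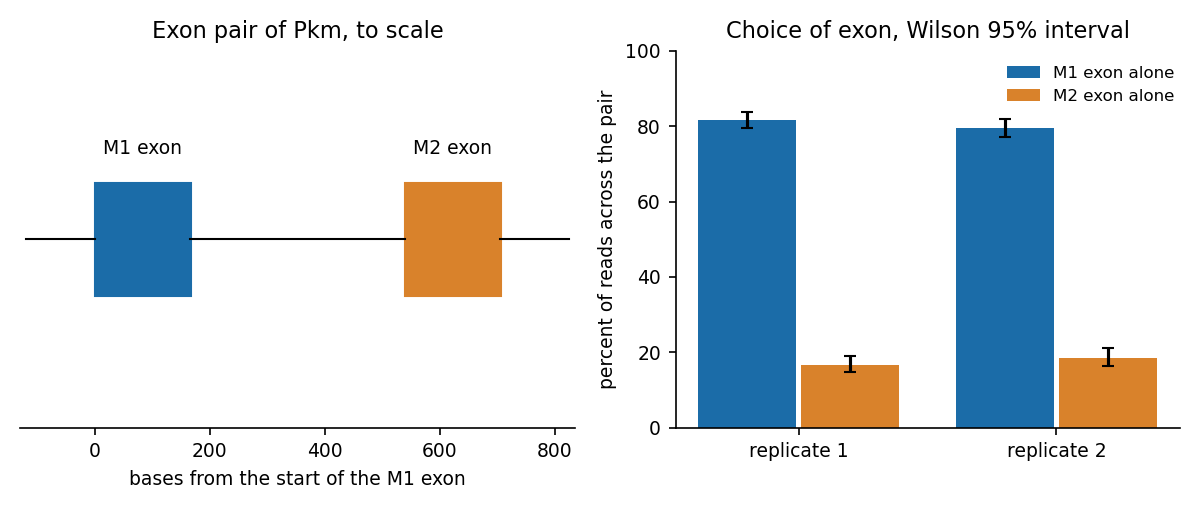
Left, the M1 and M2 exons of Pkm drawn to scale in bases from the start of the M1 exon. Right, the percent of reads across the pair that hold the M1 exon alone or the M2 exon alone in each library, with Wilson 95% intervals; M1 was at 81.7% and 79.6% of such reads and M2 at 16.8% and 18.6%.

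Some Pkm molecules were listed under a neighbour. Parp6, a poly(ADP-ribose) polymerase gene whose last annotated base lies 6083 bases before Pkm, was listed with 293 and 271 reads, of which 66 and 65 lay over Pkm exons alone. These equal 5.52% and 6.39% of the reads listed under Pkm, and 127 of the 131 were incomplete matches. The M1 exon was held whole by 66 and 47 of them, and the M2 exon by 0. Only 1 and 3 reads ran from Parp6 exons into Pkm exons, and no annotated Parp6 transcript reaches Pkm. With these reads added, in a setting chosen after the data were seen, the M1 share was 83.8% and 82.0%. For no other gene of the 10 did the reads over its exons exceed those listed under it.

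Internal exons of the other genes were nearly always included. Every internal exon of the 10 main transcripts had at least 20 informative reads in each library, and all but the M1 exon of Pkm had a mean inclusion of at least 95%. The lowest of the rest was an exon of Eno2 at 96.4% (chr6:124766531-124766664, minus strand). Over all genes, 2276 internal exons were variable, with an inclusion of 5% to 95%, and these included 2 exons of the 10 genes, the M1 and M2 exons. The inclusion of neither differed between the libraries (adjusted p = 1 for each, Fisher's exact test with Benjamini-Hochberg adjustment over all variable exons), where 0.0439% of all variable exons were called.

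First exons were told by their first splice site. Aldoa used mainly the first exon that ends at position 126799045 of chromosome 7, outside the coding sequence, in 93.4% of spliced reads in replicate 1 (92.3% to 94.3% by Wilson 95% interval), and 92.7% in replicate 2 (91.3% to 93.9%). The distal first exon of Aldoa-203, whose end lies 1243 bases upstream, had 40 and 14 reads, or 1.79% (1.32% to 2.43%) and 0.893% (0.533% to 1.49%). A site 1708 bases downstream, in the coding sequence, held 2.40% ± 0.0334 (SD, n = 2), more than any other site apart from the main one. Most Aldoa reads thus used the first splice site that lies after the main window printed above. Several annotated first exons with different starts share this site, so the start of each read was not told.

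Eno2 had the most divided first exons. Its main first splice site held 54.0% of spliced reads in replicate 1 (48.7% to 59.1% by Wilson 95% interval), and 58.4% in replicate 2 (52.3% to 64.2%). A site 188 bases downstream, annotated for Eno2-213, had 70 and 53 reads, or 19.8% and 20.6%. Sites within the coding part of the gene, those of Eno2-209 and Eno2-203, held 9.75% ± 0.588 and 5.25% ± 1.37 (SD, n = 2).

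The other genes used 1 main first splice site each. Its mean share was 98.0% in Pkm, 97.5% in Ldha, 96.5% in Eno1, 96.3% in Ldhb, 95.5% in Tpi1, 92.0% in Pgk1, and 91.1% in both Aldoc and Gpi1. In Aldoc a site 1291 bases downstream, that of Aldoc-202, held 5.85% ± 0.215 (79 and 60 reads), the only further site of these genes with at least 5%. A first splice site within a gene can come from a true start or from an RNA that lost its 5′ end, which these tables do not separate.

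Annotated transcripts held 92.1% and 91.0% of the reads of the 10 genes, against 72.1% and 70.5% over all known genes. Most genes were close to a single transcript. Of Ldha reads, 96.2% ± 0.134 were of Ldha-202 (SD, n = 2). The share was 93.5% ± 1.21 for Eno1-202, 93.3% ± 0.644 for Tpi1-205 and 91.6% ± 2.14 for Ldhb-201. It was 91.1% ± 0.478 for Aldoa-201, 91.0% ± 0.637 for Pgk1-201, 86.4% ± 1.48 for Aldoc-201 and 84.7% ± 3.25 for Gpi1-201. For Pkm, Pkm-202 (M1) held 78.6% ± 1.28 and Pkm-201 (M2) 16.4% ± 1.54.

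The second transcripts were small. Aldoa-203 held 1.34% ± 0.637 of its gene's reads, Aldoc-202 5.68% ± 0.183, Tpi1-203 3.06% ± 0.207, Gpi1-203 1.89% ± 0.822, Eno1-207 0.420% ± 0.132 and Ldha-210 0.0719% ± 0.102. Of Ldhb and Pgk1 only 1 annotated transcript was seen. In 4 genes the share of a model class had counting intervals that did not overlap between the libraries. How often this occurs among other genes was not counted, so the differences below cannot be called particular to these genes. Summed over all known genes, the annotated, incomplete and genomic shares did not overlap either. The genomic share there was 6.49% (6.44% to 6.55%) in replicate 1 and 7.82% (7.75% to 7.88%) in replicate 2. For Gpi1, incomplete matches held 4.13% of its reads in replicate 1 (2.81% to 6.02% by Wilson 95% interval), and 12.0% in replicate 2 (9.52% to 15.0%). Models classed as genomic, apart from spliced matches, held 3.63% (2.41% to 5.44%) and 0.188% (0.0331% to 1.05%) of Gpi1 reads. Annotated transcripts held 89.9% (87.3% to 92.1%) and 83.7% (80.3% to 86.6%) of them. Genomic models held 0 and 32 reads of Aldoc, or 3.10% in replicate 2 (2.20% to 4.34%), and 22 and 0 reads of Eno2, or 5.85% in replicate 1 (3.90% to 8.70%). Incomplete matches held 5.07% of Ldhb reads in replicate 1 (3.37% to 7.56%) but 1.31% in replicate 2 (0.511% to 3.32%).

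Eno2 again stood apart, with 58.5% and 55.9% of its reads in annotated transcripts. Eno2-201 held 45.0% ± 0.781 of its reads and Eno2-209, a retained-intron model of 3 exons, 9.09% ± 0.688 (SD, n = 2). New combinations of annotated splice sites held 23.7% in replicate 1 and 24.4% in replicate 2. Most of these belonged to 1 structure with 60 and 47 reads, a 12-exon chain that differs from Eno2-201 by 1 intron, which starts at the splice site 188 bases downstream described above. Of 190 exon chains outside the catalogue found for the 10 genes, it was the only one with at least 10 reads in each library, 46 were seen in both libraries and 129 had a single read.

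Eno2 also had the largest share of retained introns among the 10 genes. A spliced read kept an intron of the main transcript in 16.1% (57 of 354) and 16.3% (42 of 257) of Eno2 reads, 56 and 42 of them at intron 9 (chr6:124762762-124763004). The first exon of Eno2-209 spans this intron, so its 36 and 24 reads also count among the first splice sites above. The share was 3.57% ± 0.0877 in Aldoa, mainly at intron 2. The first exon of Aldoa-208 spans that intron and ends at the site 1708 bases downstream described above. Some Aldoa reads may thus be counted at both. In Ldhb the share was 3.46% ± 1.64, and intron 6 was kept in 19 and 7 reads. It was 2.70% in Eno1 and 2.43% in Aldoc, and at most 1.08% in Pkm, Tpi1, Gpi1 and Ldha. Pgk1 had 0 such reads of 424 and 325, which limits its share to 0.898% and 1.17% (upper Wilson bounds).

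**Figure D4:**
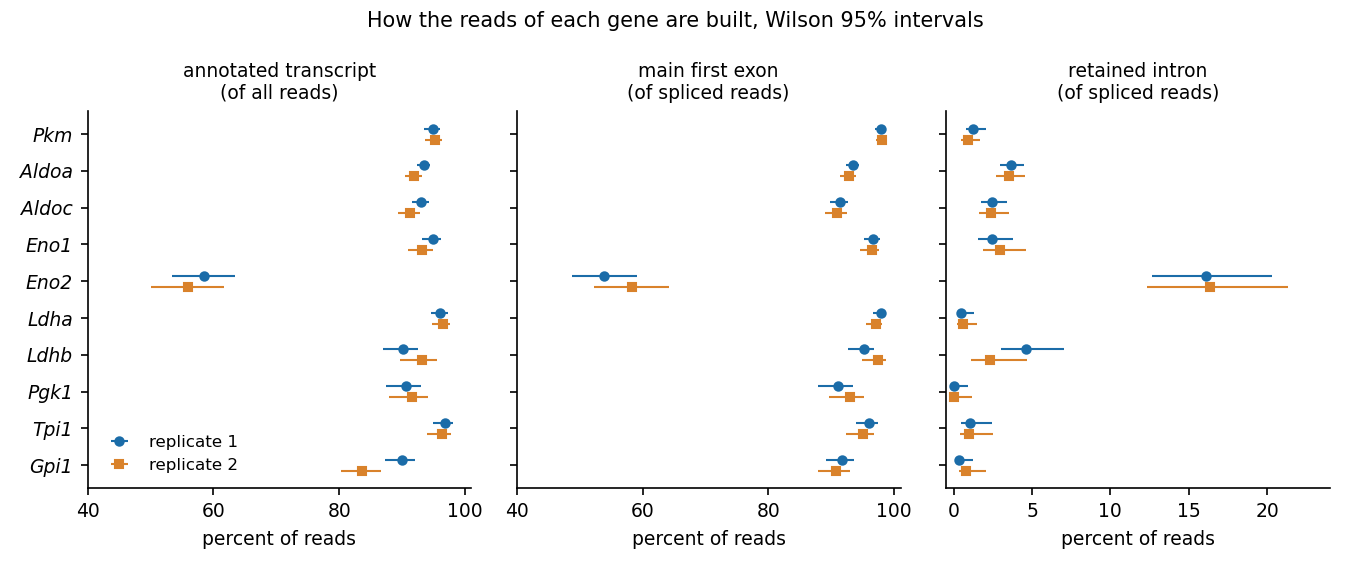
For each gene and library, the percent of reads in annotated transcripts, the percent of spliced reads that start with the main first splice site, and the percent of spliced reads with a retained intron, with Wilson 95% intervals; the first 2 panels start at 40%. Eno2 lies apart in all 3 panels, at 57.2%, 56.2% and 16.2% on average, but the panels count some of the same Eno2 reads and are not separate traits.

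All 10 genes had a lower CPM in replicate 2, but Gpi1 was slightly higher there without genomic models (log2 ratio 0.024) and per kb of model length (272 and 276 CPM per kb). The test was Fisher's exact test over 8875 genes with at least 20 reads and with Benjamini-Hochberg adjustment. By this exact test Aldoa (log2 ratio of replicate 2 over replicate 1 of -0.36, adjusted p = 8.45e-12), Aldoc (-0.30, adjusted p = 7.35e-05) and Ldhb (-0.37, adjusted p = 0.0458) were called lower. Of all genes tested, 0.834% were called lower and 0.744% higher, and 1.58% in either direction. No member was called higher, and 6 of 10 had an unadjusted p under 0.05, against 10.3% of all genes. That last share was not taken for genes of like depth.

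Abundant genes are called more often, so genes of like depth are the closer background. Among the 290 genes with at least 655 reads, the number of the least abundant member, 9.31% were called lower and 60.7% had a lower CPM in replicate 2, against 48.8% of all genes. The members' median log2 ratio was -0.22, that of these abundant genes -0.05 and that of all tested genes 0.01. The other members ran from Eno2 (-0.29, adjusted p = 0.265) through Pgk1 (-0.23, adjusted p = 0.418), Eno1 (-0.20, adjusted p = 0.229) and Tpi1 (-0.10, adjusted p = 0.830) to Pkm (-0.09, adjusted p = 0.705), Ldha (-0.08, adjusted p = 0.811) and Gpi1 (-0.04, adjusted p = 0.976), none of which passed Fisher's exact test. With the reads of its copies added, Eno1 was called too (-0.25, adjusted p = 0.00604, Fisher's exact test). The Ldhb call was lost with annotated transcripts alone (adjusted p = 0.294), without genomic models (0.0628), with no minimum of reads (0.0918) and with all reads over the same exons counted (0.123), all by Fisher's exact test.

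**Figure D5:**
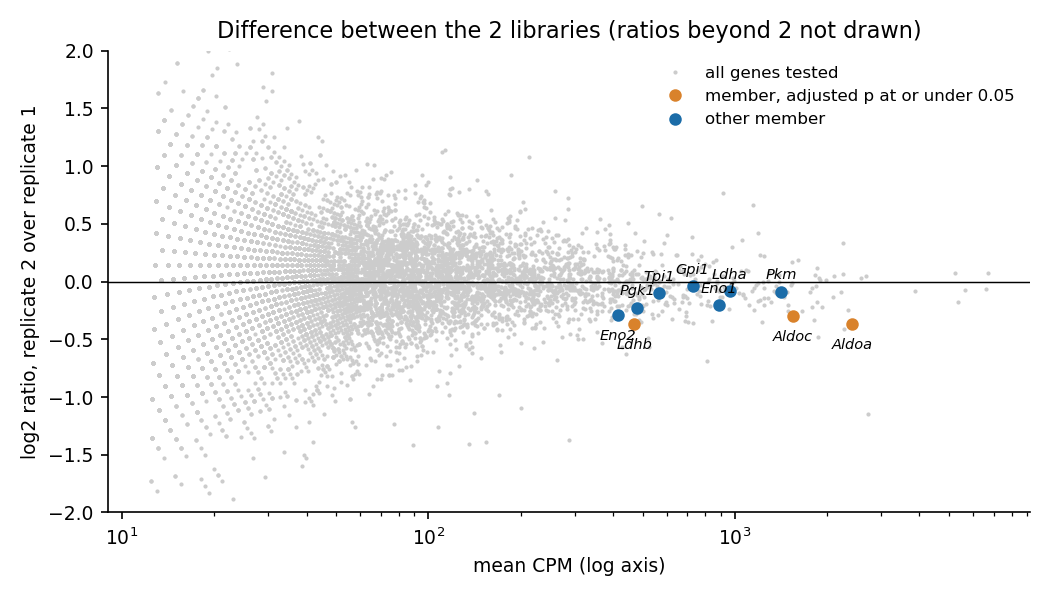
Log2 ratio of replicate 2 over replicate 1 against mean CPM on a log axis, for all 8875 genes tested (grey) and the 10 members (coloured, orange where the adjusted p is at or under 0.05). All 10 members lie below 0, from -0.04 (Gpi1) to -0.37 (Ldhb), the spread of the grey points narrows toward high CPM, and ratios beyond 2 are not drawn.

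Some marker lists of other cell types also moved between the libraries, and others held no called gene. None was called among markers of oligodendrocyte precursors (5 tested), microglia (7), vascular cells (4) or blood (4). The 10 genes of myelinating oligodendrocytes all had reads and summed to 2108 and 1241 CPM, and all 6 that could be tested had lower levels in replicate 2, 4 of them called. Of 6 choroid plexus markers, 4 had reads, with sums of 205 and 90.1 CPM, and only 1, Ttr, could be tested. Ttr had 194 and 87.4 CPM (log2 ratio -1.14, adjusted p = 6.30e-06, Fisher's exact test), while Prlr and Aqp1 were at 0 in both libraries. Of 10 neuronal markers, Snap25 and Syp were called lower and the list summed to 7832 and 7415 CPM, and of 10 astrocyte markers none was called, at 5095 and 4978 CPM. The part of these cell types in the ratios of the 10 genes was not tested.

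Of 21 other glycolytic genes, 17 had reads and 8 could be tested, of which 6 had a lower CPM in replicate 2. Ldhal6b, Ldhc, Pgk2 and Pklr had 0 reads. Pgam1, the mutase between Pgk1 and the enolases, was the only one called (log2 ratio -0.34, adjusted p = 0.00303, Fisher's exact test). The median log2 ratio of the 8 was -0.16.

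No gene of the feeding and draining pathways was called. In glucose and lactate transport (9 genes, 6 tested), Bsg, the chaperone of lactate transporters, had 1392 ± 1.05 CPM, the neuronal glucose transporter Slc2a3 185 ± 6.93, the lactate transporter Slc16a1 86.8 ± 16.0 and the endothelial and glial glucose transporter Slc2a1 79.6 ± 7.98 (SD, n = 2). In pyruvate entry to mitochondria (14 genes, 13 tested), Pdha1, Dlat, Pdhb and Dld, all of the pyruvate dehydrogenase complex, had 494 ± 10.6, 301 ± 20.5, 179 ± 7.38 and 161 ± 22.2. In the NADH shuttles (9 genes, 8 tested), the malate dehydrogenases Mdh2 and Mdh1 had 706 ± 64.5 and 561 ± 79.1, the transaminase Got1 309.6 ± 61.5 and the carrier Slc25a11 163 ± 30.2.

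The side branches were lower. Taldo1 led the pentose phosphate pathway (7 genes, 5 tested) at 198 ± 3.03 CPM, before Pgls (54.2 ± 2.53), Rpe (53.1 ± 16.2) and Tkt (32.7 ± 3.19). Pygb, brain glycogen phosphorylase, led the glycogen genes (10 genes, 7 tested) at 234 ± 0.758, before Ugp2 (144 ± 12.8), Pgm1 (107 ± 17.8) and Pygm (17.3 ± 2.12). Of 6 genes of gluconeogenesis, Fbp2 and Pck1 had 0 reads, and the highest were G6pc3 (19.8 ± 1.33), Pck2 (17.8 ± 2.37), Fbp1 (1.95 ± 1.04) and G6pc (1.28 ± 0.0897). A list of 7 genes held enzymes that make or remove fructose 2,6-bisphosphate, the activator of phosphofructokinase, together with Adpgk, an ADP-dependent glucokinase, and Gckr, the regulator of glucokinase. Of these, 4 were tested and the highest were Tigar (32.4 ± 13.1), Pfkfb4 (26.4 ± 6.37), Adpgk (19.4 ± 12.2) and Pfkfb2 (17.1 ± 5.13).

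Regulators of the genes were measured as well. Of 9 splicing factors known to act on the Pkm pair, 7 were tested, and Hnrnpa2b1, which represses the M1 exon, had 519.9 and 656 CPM and passed the test with a log2 ratio of 0.34 (adjusted p = 0.0362, Fisher's exact test). Hnrnpa1 had 210.1 ± 2.46 CPM, Srsf3 170.1 ± 23.7 and Ptbp2 96.8 ± 26.7 (SD, n = 2). The median log2 ratio of the 7 was 0.28, and whether it bears on the exon choice was not tested. Of 6 transcription factors of glycolytic genes, 4 were tested and none called, with Hif1a at 54.6 ± 10.6 CPM, Epas1 at 53.4 ± 8.92, Myc at 19.0 ± 5.90 and Arnt at 13.6 ± 5.47.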

How the data were processed

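The deposited tables hold raw read counts per transcript model in each library, per the file headers, and other columns give exon number, length and, in the annotation files, positions. The authors used mm10 and GENCODE M21, per a text file deposited with the tables. The attribute names are those that TALON writes. Which aligner and caller were run is not given in the sources used here.

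CPM is the sum of a gene's reads over all its models, scaled to 1000000 mouse reads per library, ERCC reads aside. Exon chains came from the deposited annotation files. Libraries were compared by two-sided Fisher's exact test on the genes that had 20 or more reads over both libraries, at a Benjamini-Hochberg adjusted p of 0.05. Log2 ratios have 0.5 reads added to each count. The biological coefficient of variation was 0.105 (edgeR 4.0.16, over 8875 genes), and TMM library sizes were an alternative. Wilson intervals are at 95% confidence, and the limit set by 0 reads is 3 reads. Both cover counting error alone, because amplified reads are not independent molecules. Copies were found with minimap2 2.31-r1302, and promoter windows came from RefSeq. Tests used SciPy 1.17.1. They were tried on simulated counts with counting error alone, so how they behave under a spread between libraries was not tested.

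The genes and lists were chosen with earlier results of these data known. Named besides the 10 genes were the 4 most abundant genes of each pathway list, each gene past the threshold and up to 4 with 0 reads. Isozymes (Pfkm, Gapdh, Gapdhs, Eno3), the neighbour Parp6 and the marker genes fell outside this rule and were named with their values known. Some listed genes are not reported here. Among structures, named were internal exons with an inclusion of 5% to 95%, first splice sites with at least 5% of spliced reads and 20 reads, the most abundant pair of annotated transcripts of each gene, new chains with at least 10 reads in each library, and copies of the 10 genes with at least 20 reads.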

Additional observations from a re-analysis of the deposited data

Results flagged for a closer look

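Reads on the opposite strand lay over the exons of 2 of the 10 genes in numbers above the 3 reads that a count of 0 allows. Over Pkm there were 6 such reads in replicate 1 and 11 in replicate 2, or 0.502% and 1.08% of the reads listed under Pkm. Over Ldha there were 6 and 5, or 0.737% and 0.719%. They entered no comparison above, and the other 8 genes had at most 2 in a library.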

How the results depend on the processing

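No paired analysis was possible because the study holds a single group. Leaving out a library leaves no comparison between libraries, so such settings give levels and shares only: summed CPM of 9111 to 10646, M1 share of 81.0% to 83.0%, Aldoa main first exon of 92.7% to 93.4% and distal first exon of 0.893% to 1.79%, annotated share of 91.0% to 92.1%, and family shares of 60.2% to 61.4% (Aldoa), 66.9% to 68.4% (Eno1) and 65.2% to 69.5% (Ldha). Of 195 alternative values, 160 were counted as unchanged, 29 moved, 4 lost a call (all Ldhb), 1 gained it (Eno1) and 1 changed direction. The last was Gpi1, with a log2 ratio of 0.024 without genomic models (adjusted p = 1, Fisher's exact test). A log2 ratio counted as unchanged if its sign and call stayed, whatever its size. A level or share did so within 1 SD of the main mean, which always holds when 1 of 2 libraries is left out. The count of 160 is therefore no measure of robustness. With annotated transcripts alone, 74 genes in place of 140 differed between the libraries, the summed level was 14072 CPM in place of 9878, the main first exon of Aldoa held 98.6% and Eno1 held 77.7% of enolase reads. Without incomplete matches that Aldoa share was 97.9%. Adding the reads of near-identical copies gave Eno1 76.6%. With models of at least 2 reads the annotated share was 92.8%. Variable exons that differed numbered 4 without incomplete matches and 2 with at least 50 informative reads, in place of 1. With annotated transcripts alone, Eno1 kept 94.9% and 93.1% of its reads in replicates 1 and 2, and Eno2 58.5% and 55.9%. This difference raises the Eno1 share by arithmetic. Apart from it and the changed base of CPM, the cause of these changes was not tested. Depth limits the rare structures: the distal Aldoa share of 0.893%, from 14 reads, has an interval of 0.533% to 1.49%, wider than the share.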
